A study of Mus musculus with 32 samples.

Results

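The genes described here are expressed pseudogenes of the mouse liver and small intestine. A gene was included where its deposited biotype contained the word pseudogene and its mean normalised count over the 8 libraries of an organ was at least 20 in 1 or more of the 4 organ tables. The rule found 290 genes among the 10055 genes of the 4 tables, out of 520 pseudogenes present at any level. The study sequenced polyadenylated RNA from liver, duodenum, jejunum and ileum of male mice, comparing Khk KO mice, which lack ketohexokinase, the kinase through which fructose enters metabolism, with wild-type (WT) mice. Each of the 8 groups, 1 per organ and genotype, had 4 libraries, 32 in all, and the stated interest is how fructose metabolism bears on iron balance. Age, diet, strain background and the design of the Khk allele are not given in the sources used here. The labels do not tie libraries of different organs to a mouse, so p-values measure the spread between these libraries. Where 4 values are given in a row without names, they stand for liver, duodenum, jejunum and ileum.

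Pseudogenes are gene copies that have lost the capacity to encode the full protein of the gene they derive from. A processed pseudogene, or retrocopy, arises when a messenger RNA is reverse transcribed and inserted elsewhere in the genome, so it lacks introns and usually its parent's promoter, and highly expressed genes such as those of ribosomal proteins have left many of them. An unprocessed pseudogene arises by duplication of genomic DNA and often keeps the exon structure of its family, and copies of mitochondrial DNA have also entered the nuclear chromosomes. A short read from a young copy can match the parent equally well, so a count assigned to such a copy may hold reads that came from the parent.

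The deposited table of an organ lists a gene only where the authors' test between the genotypes gave an unadjusted p under 0.05. The pseudogenes were therefore already chosen on this contrast, and their counts are read against the same shares of all genes of the table that met the level rule (the background). The table held 151 of these pseudogenes for liver, 62 for duodenum, 68 for jejunum and 147 for ileum, where 5520, 1357, 1964 and 4659 genes of any kind met the same level rule. Of the 290, 190 were in 1 table, 71 in 2 tables, 20 in 3 and 9 in all 4. The mean level nearest the limit in liver was 19.7 normalised counts for Gm5786, which was left out, and 20.1 for Olfr1372-ps1, which was kept. The nearest values outside and inside were 19.9 (Gm8069) and 20.9 (Gm11478) in duodenum, 17.02 (Gm6483) and 21.2 (Gm9001) in jejunum, and 19.6 (Gm9242) and 20.98 (Gm11942) in ileum.

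The reads in the tables came to between 1722220 in a duodenum library and 14331517 in a liver library, and the pseudogenes held 0.507% to 1.24% of them. Levels below are normalised counts, in the order of replicates 1 to 4. Khk itself, the targeted gene, had 743, 1000.3, 909 and 852 in the Khk KO libraries and 5784, 7084, 11769 and 7049 in the WT libraries of liver, and its groups did not overlap in any organ (ratios of means 0.111, 0.0459, 0.0925 and 0.0665). WT replicate 1 stood apart in the intestine, and in liver WT replicate 3 was high and WT replicate 1 low, as the summed levels below show. Marker lists for other cell types also differed between genotypes, with their values given after the results.

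By biotype, 204 of the 290 were processed, 24 transcribed processed, 35 unprocessed and 18 transcribed unprocessed pseudogenes, with 4 polymorphic, 2 transcribed unitary and 3 of no stated kind. All 290 were found in the GENCODE M21 annotation of GRCm38, 287 of them at the deposited position. Most were short and had 1 exon: the median deposited gene length was 730.5 bases and 228 had 1 exon. The intron of a coding gene held 73 of them, 35 on the strand of that gene. A close protein-coding match, defined as at least 90% identity over at least 80% of the pseudogene's transcript, existed for 229 of the 290. Among these 229 the median identity was 99.3%, 135 were at least 99% identical and 38 were identical over the aligned length.

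Ribosomal protein genes were the parents of 80 of the 229, other nuclear coding genes of 142 and genes of the mitochondrial genome of 7. Rpl7a, a protein of the large ribosomal subunit, had 6 copies among them, and Rpl21 and Rps2 had 5 each. Gapdh, a glycolytic enzyme, Gvin1, a very large interferon-inducible GTPase, Hnrnpa3, an RNA-binding protein, and Rpl23a had 4 each. To measure how far a read could tell a copy from any other gene, the parent or another, each transcript was divided into overlapping windows of 100 bases. A window was looked for on either strand. The median pseudogene had 54.9% of its windows present letter for letter in a transcript of another gene, with 41 pseudogenes at 100% and 43 at 0.

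Stretches of 60 bases from 7 pseudogenes and their closest coding genes show this range. Each is from the GENCODE M21 transcripts, read 5′ to 3′ within the coding sequence of the parent, where copy and parent differ at the largest number of positions in an alignment without gaps, and capitals mark the bases that differ. The opening pair, a retrocopy of a large-subunit ribosomal protein and a nuclear copy of a mitochondrial gene, has no differing base in the stretch or over the aligned length.
Rpl38-ps2: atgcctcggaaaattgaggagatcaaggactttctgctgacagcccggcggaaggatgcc
Rpl38: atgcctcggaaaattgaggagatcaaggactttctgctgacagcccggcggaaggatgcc
Gm28439: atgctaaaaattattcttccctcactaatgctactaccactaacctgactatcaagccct
mt-Nd4: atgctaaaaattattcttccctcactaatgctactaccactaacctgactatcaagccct
The next copies are among the most abundant pseudogenes of these organs and differ from their parents at 1 or 2 of the 60 positions. Gpx4 encodes the glutathione peroxidase that reduces lipid hydroperoxides, Gstp2 a glutathione S-transferase of the pi class, and Rpl17 a protein of the large ribosomal subunit.
Gpx4-ps2: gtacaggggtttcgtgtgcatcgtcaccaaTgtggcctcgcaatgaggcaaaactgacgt
Gpx4: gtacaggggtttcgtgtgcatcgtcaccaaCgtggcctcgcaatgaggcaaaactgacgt
Gstp-ps: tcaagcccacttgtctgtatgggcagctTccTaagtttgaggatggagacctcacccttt
Gstp2: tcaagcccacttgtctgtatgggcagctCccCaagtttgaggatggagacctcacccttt
Rpl17-ps10: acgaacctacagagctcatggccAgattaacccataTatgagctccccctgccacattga
Rpl17: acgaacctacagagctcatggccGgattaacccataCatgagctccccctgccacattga
The last are older retrocopies of ribosomal protein genes, with 15 and 12 differing positions of 60, and almost none of their windows occur in another transcript (0.133% and 0%).
Gm16061: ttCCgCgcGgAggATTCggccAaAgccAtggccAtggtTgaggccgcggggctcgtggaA
Rps2: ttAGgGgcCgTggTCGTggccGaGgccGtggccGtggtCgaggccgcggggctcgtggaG
Gm11341: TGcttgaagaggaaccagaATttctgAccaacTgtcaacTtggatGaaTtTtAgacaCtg
Rpl27a: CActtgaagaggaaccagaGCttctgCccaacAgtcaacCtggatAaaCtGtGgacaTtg

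In liver, 34 of the 151 pseudogenes were higher and 68 lower in Khk KO at an adjusted p under 0.05 in the authors' deposited table, where the background shares were 35.6% higher and 36.9% lower. In ileum 24 were higher and 37 lower of 147, against background shares of 29.6% and 23.5%. In jejunum 1 was higher, Gm12250, and 1 lower, Gm15427, of 68, where 3.82% of all genes passed (2.7% higher, 1.12% lower). Of the 2413 jejunum rows, 759 were read as not adjusted, at mean levels of up to 125 normalised counts. Pseudogenes such as Gm15368 were among them and could not pass, so the jejunum counts are not read against these shares. None of the 62 in duodenum passed, where 2.58% of all genes did. By the sign of the fold change alone, 110 of 151 were lower for liver, 48 of 62 for duodenum, 49 of 68 for jejunum and 101 of 147 for ileum, while the background shares that were lower were 50.6%, 59.2%, 50.4% and 51.5% (higher 49.4%, 40.8%, 49.6% and 48.5%).

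The refitted edgeR quasi-likelihood test, with Benjamini-Hochberg adjustment over as many genes as in the authors' adjustment, called 23 pseudogenes higher and 48 lower in liver, beside 23.0% and 26.5% of all genes. It called 17 higher and 24 lower in ileum, beside 22.0% and 11.5%. It called none in duodenum, where 43 had an unadjusted p under 0.05 and DESeq2 also called 0, and none in jejunum, where 58 had an unadjusted p under 0.05 and DESeq2 called 7. The shares of all genes called there by edgeR were 0.0737% and 0.0509%. An unadjusted edgeR p under 0.05 was also found for 875 of 1357 genes in duodenum and 1693 of 1964 in jejunum. The share of all genes called by DESeq2 is not given here, so its 7 calls are not read as a result about pseudogenes. Single libraries decided much of these counts: without 1 of the Khk KO libraries, 2 to 12 pseudogenes were called in liver and 5 to 12 in ileum, and without WT replicates 1 to 4 in turn 111, 11, 51 and 10 in liver and 48, 10, 25 and 55 in ileum. Shares of all genes called in the same refits are not given here, so this spread is not read as particular to pseudogenes. The 4 libraries of each genotype did not overlap for 98 of 151 pseudogenes in liver, 29 of 62 in duodenum, 37 of 68 in jejunum and 90 of 147 for ileum, where 66.4%, 46.1%, 57.5% and 68.3% of all genes did not overlap.

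The pseudogenes divided by their likeness to a coding gene and by their kind, given here as counts without a test. Processed copies at least 97% identical to a coding gene were lower in 90 of 93 cases for liver, 42 of 46 for duodenum, 40 of 46 for jejunum and 80 of 99 for ileum. Processed copies under 97%, or with only a partial match, were higher in 16 of 26 cases in liver, 15 of them at an adjusted p under 0.05 in the authors' deposited table (35.6% of all genes), in 2 of 4 in duodenum, 6 of 11 in jejunum and 8 of 19 in ileum. Unprocessed pseudogenes were higher in 20 of 28 cases for liver, 8 of 9 for duodenum, 7 of 9 for jejunum and 16 of 23 for ileum. Their median log2 fold change was 0.99, 0.63, 0.82 and 0.72 in that order. The unprocessed class includes nuclear copies of mitochondrial genes, described below. Among these, Gm28439 and Gm10222 were higher in liver and duodenum, and Gm29216 was lower in jejunum and ileum. For the copies at least 97% identical the medians were -0.83, -0.59, -0.69 and -0.60, and after removal of the length trend described below they were -0.04, -0.19, -0.25 and 0.03, so the median turned to the other sign in ileum.

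**Figure D1:**
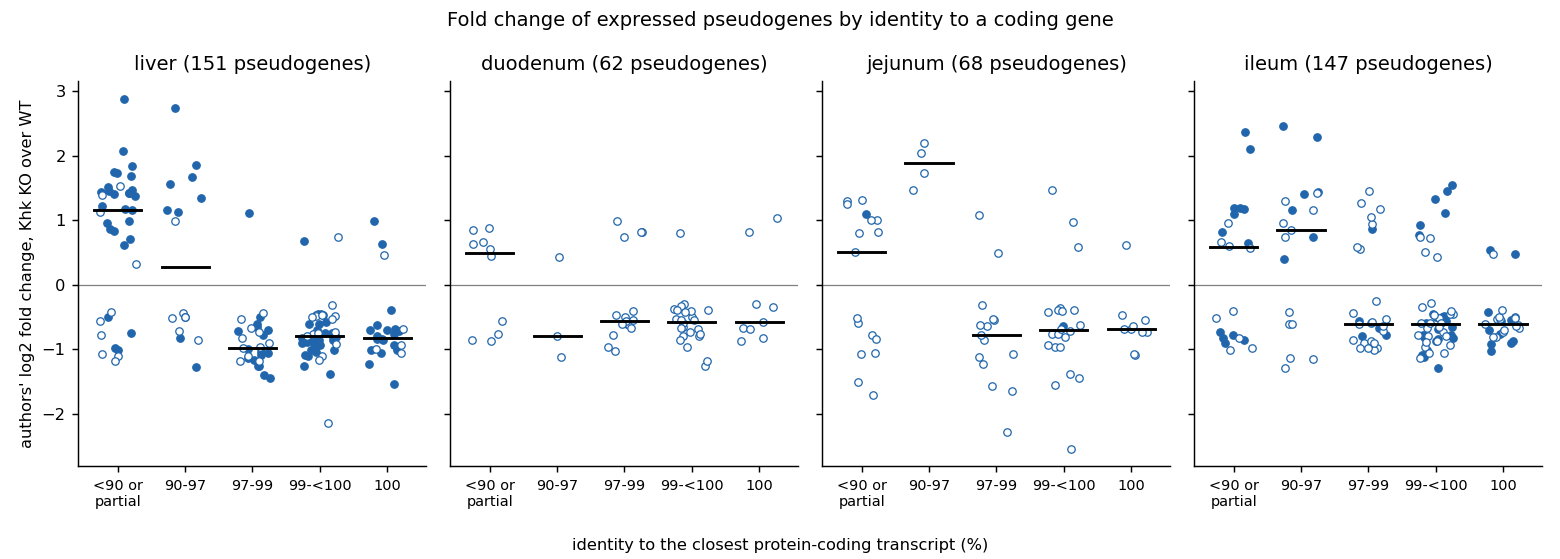
Log2 fold change (Khk KO over WT) from the authors' deposited table for each expressed pseudogene, by its identity in percent to the closest protein-coding transcript, 1 panel per organ. Filled points have an adjusted p under 0.05, horizontal bars are class medians, and the horizontal spread of points carries no value. In liver the class under 90% or with a partial match has a median of 1.16, while the 3 classes from 97% up lie between -0.98 and -0.79; with the length trend taken out, the median of all 151 moves from -0.72 to 0.06.

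In liver the 46 copies from 99% to under 100% had a median of -0.79 and the 24 identical copies a median of -0.82. The 37 with no close match had a median of 1.16, with 27 higher and 10 lower, and the 16 from 90% to 97% split evenly, 8 and 8.

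Retrocopies of ribosomal protein genes, which encode parts of the ribosome, were the largest single family, counted only where the match was close as defined above. In liver 47 of 49 were lower, 32 of them at an adjusted p under 0.05 in the authors' deposited table, beside 2 that passed as higher (36.9% and 35.6% of all genes), with a median log2 fold change of -0.86. In ileum 48 of 48 were lower, 21 of them past the threshold (23.5% of all genes), with a median of -0.67. In duodenum 29 of 29 and in jejunum 14 of 15 were lower, with medians of -0.57 and -0.55, of which 0 and 1 passed (1.11% and 1.12% of all genes were called lower). The jejunum count has the limit given above for rows read as not adjusted. The coding ribosomal protein genes with a row were lower in 79 of 79 cases for liver, 64 of 64 for duodenum, 38 of 38 for jejunum and 74 of 74 for ileum. Without the length trend the medians of the ribosomal copies were -0.05, -0.18, -0.15 and -0.03, and 30 of 49, 25 of 29, 10 of 15 and 30 of 48 were then lower, none of them at an adjusted p under 0.05 in the edgeR quasi-likelihood test. More diverged copies are outside these counts, among them Gm11341, higher in liver, and Rps4l, lower in liver, jejunum and ileum.

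Gm9843 (chr16:76403251-76403652), an identical retrocopy of Fau, which encodes a ribosomal protein fused to a ubiquitin-like domain, had the largest fall in liver among those past the threshold in the authors' deposited table. It had 63.3, 62.3, 96.4 and 86.3 in the Khk KO libraries and 153, 193, 295 and 248 in the WT libraries, and the groups did not overlap. The fold change was -1.53 ± 0.25 (SE) on the log2 scale with an adjusted p of 0.0149 in the edgeR quasi-likelihood test. In ileum it had 200.1, 307, 268 and 315 in the Khk KO libraries and 1036, 525, 394 and 282 in the WT libraries, with WT replicate 1 far above the rest and WT replicate 4 within the Khk KO range, and -1.03 ± 0.34 did not pass at an adjusted p of 0.0762 in the edgeR test, although the authors' deposited table gave 0.0207. Without WT replicate 1 it was -0.56 there.

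The next largest falls of liver were all copies of ribosomal protein genes. Rpl9-ps4, a copy of Rpl9, had 58.5, 56.2, 71.4 and 107 in the Khk KO libraries and 103, 168, 284 and 214 in the WT libraries, with 1 Khk KO library above the lowest WT library, at -1.39 ± 0.32 (SE) on the log2 scale with an adjusted p of 0.0214 in the edgeR quasi-likelihood test. Rps3a3, a copy of Rps3a1, had 10.6, 14.1, 9.52 and 11.8 in the Khk KO libraries and 21.9, 28.1, 40.8 and 30.4 in the WT libraries, with no overlap, and Gm6311, a copy of Rps2, had 19.2, 16.1, 15.5 and 13.6 in the Khk KO libraries and 43.8, 27.05, 53.7 and 29.4 in the WT libraries, also with no overlap. Both passed in the edgeR test (adjusted p 0.0303 and 0.038), as did Gm5805, a copy of Rps14 (0.0429), but not Rps10-ps1, a copy of Rps10 (0.0528). A larger difference that passed in neither test was that of Rps26-ps1, with 39.3, 13.1, 14.3 and 30.9 in the Khk KO libraries and 91.9, 34.6, 288 and 16.1 in the WT libraries, where WT replicate 3 alone stood far above the rest.

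In ileum the most abundant ribosomal copies were Rpl17-ps3, a copy of Rpl17 with 1999, 1911, 2237 and 1859 in the Khk KO libraries and 5299.7, 2954, 2834 and 3298 in the WT libraries, Rpl17-ps10 with 2165.8, 2327, 2505 and 2336 in the Khk KO libraries and 4249, 2786, 2947 and 2841 in the WT libraries and Gm6472, a copy of the small-subunit gene Rps7 with 1705, 1674, 1713 and 1614 in the Khk KO libraries and 2724, 2255, 2251 and 2149 in the WT libraries. None of the 3 overlapped between genotypes, and WT replicate 1 was the highest library of each. Rpl17-ps3 was at -0.85 ± 0.19 (edgeR adjusted p 0.0259) and Gm6472 at -0.48 ± 0.11 (0.0244), the latter turning to 0.12 without the length trend. Rpl17-ps10 was at -0.46 ± 0.15 (0.0729), and at -0.29 without WT replicate 1.

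Rpl38-ps2 (chr6:140746960-140747172), whose transcript is found letter for letter in Rpl38, was in all 4 tables and lower in each. In liver it had 71.9, 93.4, 60.7 and 57.2 in the Khk KO libraries and 126, 139.6, 166 and 160.4 in the WT libraries, with no overlap, and the edgeR fold change was -1.06 ± 0.22 (adjusted p 0.0187). In ileum it had 104, 139.6, 155 and 139 in the Khk KO libraries and 283, 206, 208 and 284 in the WT libraries, again with no overlap, at -0.87 ± 0.19 (edgeR adjusted p 0.0221). In duodenum it had 266, 229, 182 and 212 in the Khk KO libraries and 630.0, 302, 280.2 and 224 in the WT libraries, where WT replicate 1 was above the rest and the groups overlapped. In jejunum it had 152, 136, 123 and 95.9 in the Khk KO libraries and 318, 163, 159 and 175 in the WT libraries, with no overlap, and neither segment passed the threshold in the edgeR test. Without WT replicate 1 the fold changes of duodenum and jejunum were -0.27 and -0.38 instead of -0.69 and -0.68.

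Gm15427 (chr1:95498621-95499151), a processed pseudogene, was the pseudogene that the authors' deposited table called lower in jejunum, at an adjusted p of 0.0024. There it had 1174, 1128, 1188 and 1023 in the Khk KO libraries and 1918, 1804, 1712 and 1576 in the WT libraries. The genotypes did not overlap in any of the 4 organs, and its log2 fold changes in the authors' deposited table were -0.71, -0.54, -0.64 and -0.83. The edgeR test passed it in liver (adjusted p 0.0285) and ileum (0.0148), and gave 0.252 in jejunum. Without the length trend they were 0.10, -0.12, -0.22 and -0.20, so that the sign turned in liver. Without WT replicate 1 the duodenum value was -0.28.

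Rpsa-ps10, a copy of the laminin receptor and small-subunit protein gene Rpsa, Gm15500, a copy of the large-subunit gene Rpl5, and Rpl6l, a copy of the large-subunit gene Rpl6, were also lower in all 4 organs. In liver Rpsa-ps10 had 238, 215, 270.1 and 241 in the Khk KO libraries and 334, 413, 694 and 393 in the WT libraries, and in ileum 458, 534, 541 and 534 in the Khk KO libraries and 1344, 795, 725 and 759.8 in the WT libraries. Both organs passed in the edgeR test (adjusted p 0.0232 and 0.0293), and the groups did not overlap in any organ. Rpl6l showed the same separation in all 4 organs, with edgeR fold changes from -0.78 in ileum to -0.31 in jejunum, and passed in liver and ileum (adjusted p 0.0253 and 0.0144). Gm15500 overlapped between genotypes in all 4 organs and passed in liver only (edgeR adjusted p 0.0458); the difference between organs was not tested. Leaving out WT replicate 1 took Rpsa-ps10 in duodenum from -0.86 to -0.25 and Gm15500 in ileum from -0.54 to -0.28. Length correction turned the sign of Rpsa-ps10 in jejunum, of Gm15500 in ileum and of Rpl6l in liver and jejunum.

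Copies of other nuclear coding genes were lower in 53 of 63 cases in liver, with a median of -0.74 that turned to 0.05 without the length trend. In ileum 38 of 72 were lower, with a median of -0.42 that turned to 0.18, and in duodenum and jejunum 15 of 21 and 26 of 35 were lower, with medians of -0.61 and -0.74. Gpx4-ps2 (chr10:45875291-45876086), 99.7% identical to Gpx4, had 496, 609, 640.2 and 566 in the Khk KO libraries and 825, 1321, 2029.5 and 1367 in the WT libraries in liver, where the groups did not overlap and the fold change was -1.26 ± 0.23 (SE) on the log2 scale with an adjusted p of 0.0164 in the edgeR quasi-likelihood test. In duodenum it had 1116, 2142, 1546 and 1714 in the Khk KO libraries and 5327, 2040.3, 2198 and 1533 in the WT libraries, so that a single WT library was above all others and the other 3 lay within the Khk KO range or just above it. The same library was highest in jejunum, with 3844, 1487, 1679.9 and 1291 in the WT libraries against 1357, 1110.2, 1162 and 1228 in the Khk KO libraries. In ileum the WT values were 1169, 496, 533 and 379.9 and the Khk KO values 347, 384, 403 and 366. None of the 3 intestinal segments passed, and without WT replicate 1 the fold changes there were -0.24, -0.29 and -0.33 instead of -0.77, -0.77 and -0.78.

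Gstp-ps (chr1:192073820-192074450), within an intron of Traf5 and 99.2% identical to Gstp2, was the second most abundant pseudogene of liver. It had 3389, 2612, 2206 and 3388 in the Khk KO libraries and 3822, 5511, 6316 and 4980.2 in the WT libraries there, with no overlap, at -0.83 ± 0.19 (SE) on the log2 scale with an adjusted p of 0.0205 in the edgeR quasi-likelihood test. In ileum it had 287, 343, 366 and 315 in the Khk KO libraries and 1198, 559.6, 619 and 468 in the WT libraries, also with no overlap, at -1.12 ± 0.26 (SE) on the log2 scale with an adjusted p of 0.0276 in the edgeR quasi-likelihood test. Its WT replicate 1 was the highest of 8 in duodenum (4032) and jejunum (2919), where the other WT libraries lay between 894 and 1468 and the genotypes overlapped. Without that library the fold changes there were -0.23 and -0.11 instead of -0.80 and -0.68.

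**Figure D2:**
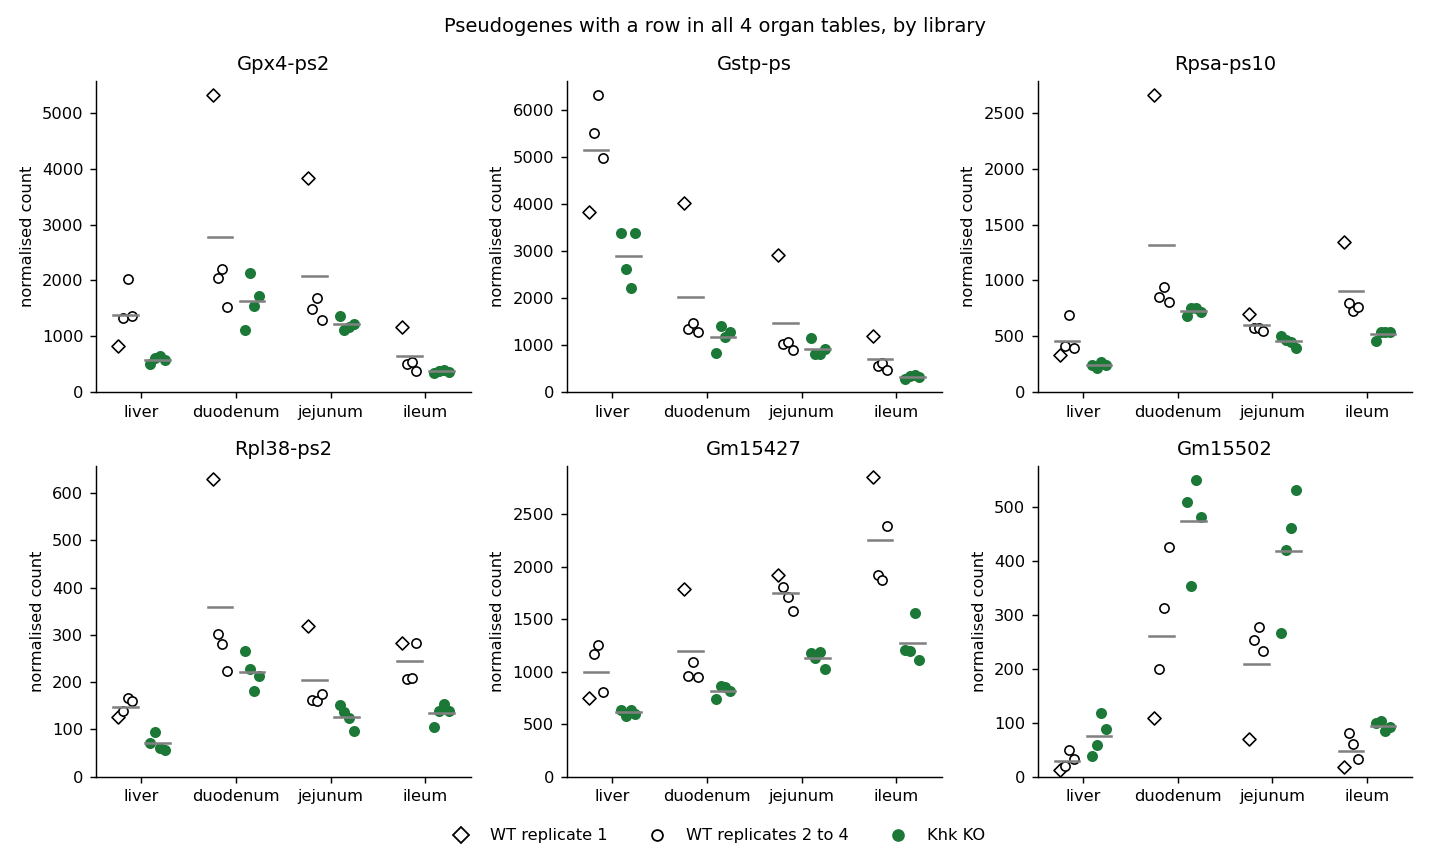
Normalised counts of 6 of the 9 pseudogenes with a row in all 4 organ tables, by organ, for each WT library (open symbols, with replicate 1 as a diamond) and each Khk KO library (filled), with grey bars at the group means. Gpx4-ps2, Gstp-ps, Rpsa-ps10, Rpl38-ps2 and Gm15427 were lower in Khk KO in all 4 organs and Gm15502 higher; WT replicate 1 was the highest of the 8 libraries for Gpx4-ps2 within each segment, at 5327 in duodenum, and the lowest of the 8 libraries for Gm15502 within each segment, at 70.3 in jejunum. With the length trend taken out the sign turned for Gm15427 in liver and Rpsa-ps10 in jejunum.

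The most abundant pseudogene of liver was Gm5424 (chr10:62071123-62072362), a 99.5% identical retrocopy of Ass1, the argininosuccinate synthase of the urea cycle. It had 7450.0, 6092, 7415 and 7202 in the Khk KO libraries and 8238, 13048, 14900.0 and 12178 in the WT libraries, with no overlap, and fell by 0.78 on the log2 scale with an SE of 0.17 and an adjusted p of 0.019 in the edgeR test. Without the length trend its fold change was -0.07. Gm15590, a 99.5% identical copy of Ftl1-ps1, a gene of the iron storage protein ferritin light chain that is annotated as coding, had 44.1, 58.2, 29.7 and 59.96 in the Khk KO libraries and 72.2, 81.1, 76.4 and 95.8 in the WT libraries in liver and 33.8, 56.3, 35.5 and 32.7 in the Khk KO libraries and 80.3, 65.3, 60.6 and 51.6 in the WT libraries in duodenum. The groups overlapped in duodenum and not in liver, and it did not pass the edgeR test in either (adjusted p 0.0878 and 0.838). Its liver value turned to 0.02 without the length trend.

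Short coding genes were mostly lower as well. Protein-coding genes of at most 1000 bases were lower in 176 of 179 cases for liver, 89 of 92 for duodenum, 90 of 97 for jejunum and 175 of 178 for ileum, with medians of -0.81, -0.61, -0.60 and -0.67. Pseudogenes of at most 1000 bases were lower in 92 of 108, 45 of 53, 36 of 42 and 83 of 97 cases in the same order. Longer pseudogenes were lower in 18 of 43 cases for liver, 3 of 9 for duodenum, 13 of 26 for jejunum and 18 of 50 for ileum. When a smooth trend of each library with gene length was taken out before the edgeR test, 29 pseudogenes in liver and 19 in ileum passed, all of them higher. The same test then called 13.1% of all genes in liver (6.09% higher, 6.99% lower) and 9.85% in ileum (4.64% higher, 5.22% lower). The median fold change of all pseudogenes moved from -0.72 to 0.06 in liver and from -0.57 to 0.04 in ileum, and such a correction takes a genotype effect that runs with length away as well. Length and genotype effects on short transcripts cannot be told apart in these data.

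**Figure D3:**
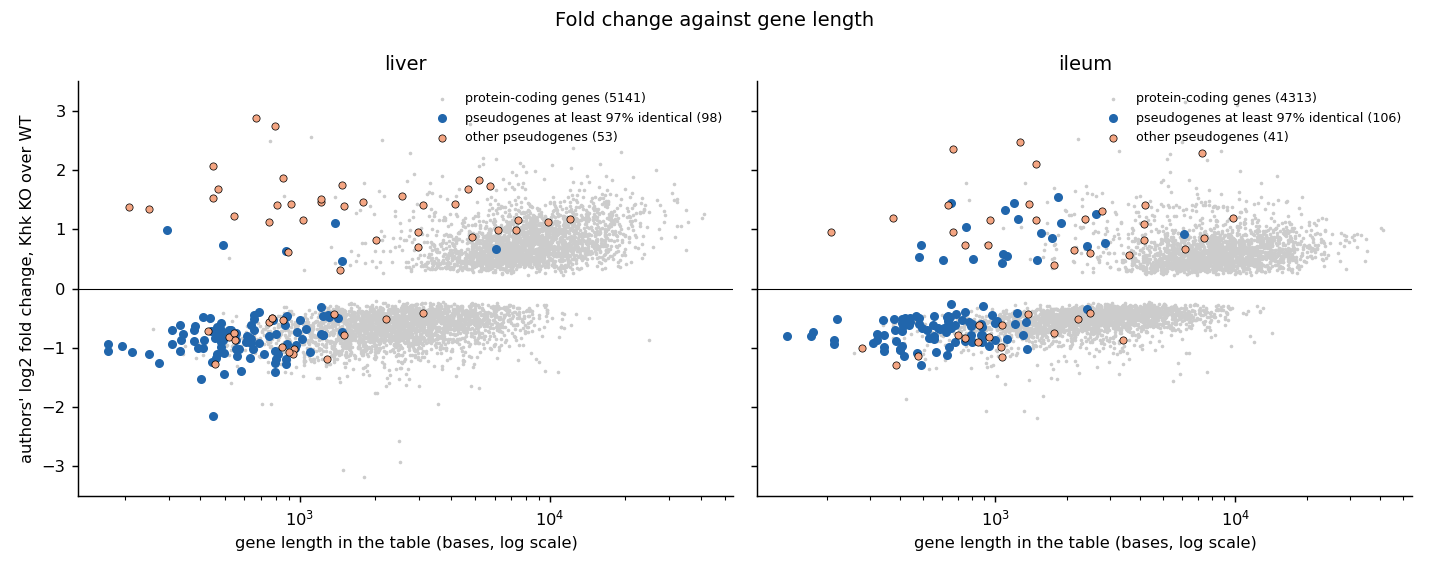
Log2 fold change (Khk KO over WT, authors' deposited table) against the deposited gene length in bases on a log scale, in liver and ileum, for protein-coding genes (grey), pseudogenes at least 97% identical to a coding gene (blue) and other pseudogenes (orange). The axis leaves out 2 coding genes in liver and 2 in ileum. Pseudogenes at least 97% identical are mostly short and below 0, among short coding genes that are also below 0, and many other pseudogenes are short and above 0; with the length trend taken out, the median of all pseudogenes is 0.06 in liver and 0.04 in ileum.

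The pseudogenes that rose most in liver were from duplicated families and older retrocopies. Mug-ps1 (chr6:122176015-122248563), a relative with many exons of the murinoglobulins, which are protease inhibitors of the plasma, had 2123, 2753, 2524 and 1654 in the Khk KO libraries and 721, 641, 525 and 647 in the WT libraries. Every Khk KO library was above every WT library, and the rise was 1.84 ± 0.18 (SE) on the log2 scale with an adjusted p of 0.00288 in the edgeR quasi-likelihood test. It was 1.66 without the length trend.

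The Cyp2d pseudogenes belong to a family of cytochrome P450 enzymes that oxidise drugs and other foreign compounds, and 5 of them were in the liver table, 4 higher and 1 lower. Cyp2d36-ps (chr15:82671288-82683257) had 369, 177, 407 and 225 in the Khk KO libraries and 112, 109, 44.6 and 88.3 in the WT libraries, and Cyp2d38-ps (chr15:82693571-82707353) had 957, 875, 1258 and 918 in the Khk KO libraries and 419, 386, 333 and 345 in the WT libraries. Cyp2d37-ps (chr15:82688750-82693148) was the most abundant of these, with 2512, 2079.9, 3097 and 2171 in the Khk KO libraries and 1000.4, 1747, 1370.2 and 1452 in the WT libraries. For these 3, which are neighbours on chromosome 15, the groups did not overlap. The edgeR fold changes were 1.74 ± 0.34, 1.43 ± 0.16 and 0.82 ± 0.19, with adjusted p of 0.0175, 0.00555 and 0.0211. Cyp2d35-ps, at 1.39 ± 0.57, and Cyp2d41-ps, at -0.77 ± 0.34, overlapped between genotypes and did not pass (edgeR adjusted p 0.122 and 0.153). None of the 3 that passed shared a window of 100 bases with another transcript, and their closest coding relatives, Cyp2d26, Cyp2d10 and Cyp2d40, were 73.1%, 79.3% and 89% identical over the part that aligned.

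Of the 28 unprocessed pseudogenes of liver, 16 passed as higher and 3 as lower in the authors' deposited table, where 35.6% and 36.9% of all genes did. The higher ones included Gpr137b-ps, whose closest match is Gpr137b, at 1.67 ± 0.39 (edgeR adjusted p 0.0219), and Ifi203-ps at 1.56 ± 0.46 (0.0424), neither of which overlapped between genotypes. Cyp21a2-ps, named for a steroid hydroxylase, was at 1.11 ± 0.35 and did not pass in the edgeR test (0.0542). The 3 lower ones were Mup-ps13, Gm8893 and Mup-ps19. Mup-ps19, related to Mup20, a major urinary protein that carries pheromones, had 2397, 2599, 1069 and 3504 in the Khk KO libraries and 4186, 4119, 3371 and 5271 in the WT libraries, with the highest Khk KO library above the lowest WT library. It passed in the authors' deposited table (0.0169) but not in the edgeR test (adjusted p 0.0742). Serpina4-ps1, from a cluster of serine protease inhibitor genes, had 1105, 2219, 919 and 465 in the Khk KO libraries and 1686, 1371, 4454 and 3226 in the WT libraries, with overlapping groups and an edgeR adjusted p of 0.1.

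Gm18760 (chr14:30027687-30028351), a retrocopy in an intron of Chdh that lies on the opposite strand and matches Cir1 at 75.9% identity, had the largest rise of liver. It had 55.6, 51.2, 40.5 and 43.6 in the Khk KO libraries and 18.6, 4.33, 0 and 3.80 in the WT libraries, with no overlap, at 2.90 ± 0.70 (SE) on the log2 scale with an adjusted p of 0.0234 in the edgeR quasi-likelihood test. In ileum it had 31.4, 54.0, 39.0 and 44.3 in the Khk KO libraries and 0, 13.5, 11.4 and 7.25 in the WT libraries, with no overlap, at 2.33 ± 0.57 (SE) on the log2 scale with an adjusted p of 0.0325 in the edgeR quasi-likelihood test. These are low levels, of at most 55.6 normalised counts per library, and 1 WT library in each organ was at 0.

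Among the older ribosomal retrocopies printed above, Gm11341, a copy of Rpl27a, had 24.9, 60.3, 36.9 and 37.2 in the Khk KO libraries and 16.4, 0, 12.9 and 8.54 in the WT libraries in liver, with no overlap and an edgeR adjusted p of 0.0469 at 2.04 ± 0.62. Gm16061, a copy of Rps2 in an intron of Por, had 23.0, 77.3, 79.7 and 76.3 in the Khk KO libraries and 42.7, 15.1, 2.27 and 11.4 in the WT libraries, and its groups overlapped. It passed in the authors' deposited table (adjusted p 0.0168) but not in the edgeR test (0.0738). Gm7599, a 90.7% identical copy of Nsa2, a factor of ribosome assembly, had 84.4, 104, 20.2 and 59.1 in the Khk KO libraries and 13.1, 3.25, 21.2 and 1.90 in the WT libraries, with 1 Khk KO library below the highest WT library, at 2.71 ± 0.66 (SE) on the log2 scale with an adjusted p of 0.0241 in the edgeR quasi-likelihood test.

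In ileum the largest rises beside that of Gm18760 were those of copies of Gvin1. Gm27149 (chr7:106091210-106092475) had 53.7, 73.9, 109 and 33.7 in the Khk KO libraries and 1.24, 9.88, 32.1 and 5.18 in the WT libraries, and Gm8979 (chr7:106076751-106084046) had 1776, 1933, 2910.0 and 1751 in the Khk KO libraries and 38.5, 274, 810.4 and 583 in the WT libraries. In both, WT replicate 1 was lowest and every Khk KO library was above every WT library. The rise of Gm8979 was 2.29 ± 0.60 (SE) on the log2 scale with an adjusted p of 0.0403 in the edgeR quasi-likelihood test, and that of Gm27149 2.44 ± 0.67 (edgeR adjusted p 0.0448). Without the length trend both kept the sign at 1.90 and 2.90, with edgeR adjusted p of 0.116 and 0.0586. All windows of Gm27149 and 71.0% of those of Gm8979 occur in other transcripts, so reads of this family can be shared between its genes.

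Naip3, a copy within the Naip family of sensors of bacterial flagellin and secretion systems, had 193, 171, 269 and 194 in the Khk KO libraries and 46.0, 106, 114 and 43.5 in the WT libraries in ileum, at 1.41 ± 0.33 (SE) on the log2 scale with an adjusted p of 0.0277 in the edgeR quasi-likelihood test. Gm6768, a 99.9% identical retrocopy of Ncoa4, the receptor that delivers ferritin to autophagy, had 176, 114, 140.5 and 178 in the Khk KO libraries and 43.5, 72.8, 72.5 and 93.2 in the WT libraries. It rose by 1.11 ± 0.26 (edgeR adjusted p 0.0285), and Ncoa4 itself was at 0.93 in the authors' deposited table. 5033423K11Rik, Gm9923 and Gm9855 were the other largest rises of ileum, at 2.07, 1.54 and 1.44, with edgeR adjusted p of 0.0346, 0.0325 and 0.0544. Gm9923 is a 99.9% identical copy of Hbs1l, a factor that rescues stalled ribosomes, and Gm9855 a 99.2% identical copy of Tdg, a DNA glycosylase.

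The largest falls of ileum after Gm29216 and Gstp-ps were those of Gm8430, a copy of Rps27a, Gm9843, Gm15920, a copy of the respiratory chain subunit gene Ndufa12, and Gm10221, an identical copy of the ATP synthase subunit gene Atp5l. Gm15920 had 216, 277, 211 and 180.2 in the Khk KO libraries and 587, 404, 424 and 382 in the WT libraries, with no overlap, at -1.02 ± 0.18 (SE) on the log2 scale with an adjusted p of 0.0103 in the edgeR quasi-likelihood test. Gm8430 had 131, 112, 85.0 and 72.3 in the Khk KO libraries and 285, 227, 200.002 and 142 in the WT libraries, with no overlap and an edgeR adjusted p of 0.0293. Gm10221 had 343, 380.1, 267 and 393 in the Khk KO libraries and 1177, 592, 440.4 and 414 in the WT libraries and did not pass in the edgeR test (0.0752), with WT replicate 1 far above the rest and a fold change of -0.48 without it instead of -0.92. The sign of these was kept with the length trend taken out, at -0.41, -0.26, -0.35 and -0.13, without passing the threshold.

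The most abundant pseudogene of each intestinal segment was Btnl5-ps (chr17:34488070-34497429), of the butyrophilin-like family, whose coding members act in the gut epithelium on intraepithelial T cells. In ileum it had 4793, 5222, 5234 and 4896 in the Khk KO libraries and 2846, 3327, 3248 and 3452 in the WT libraries, with no overlap, at 0.65 ± 0.11 (SE) on the log2 scale with an adjusted p of 0.00968 in the edgeR quasi-likelihood test. In jejunum it had 3504, 4073, 4193 and 4737 in the Khk KO libraries and 2638, 2856, 3000.0 and 3171 in the WT libraries, and in duodenum 4683, 4660.1, 4382 and 4515 in the Khk KO libraries and 2126, 3709, 3742 and 3906 in the WT libraries. The groups did not overlap in either segment, and neither passed (edgeR adjusted p 0.252 and 0.838). In duodenum the fold change was 0.44, and 0.27 without WT replicate 1. Its neighbour Btnl7-ps (chr17:34532877-34547651) had 1398, 1397, 1606 and 1418 in the Khk KO libraries and 1104, 985, 1245 and 1093 in the WT libraries in ileum, at 0.39 ± 0.11 (SE) on the log2 scale with an adjusted p of 0.0472 in the edgeR quasi-likelihood test. Only 0.424% of the windows of Btnl5-ps and 1.08% of those of Btnl7-ps occur in other transcripts.

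Gm12250, a retrocopy that matches Gm5431 at 68.5% identity, was the pseudogene that the authors' deposited table called higher in jejunum (adjusted p 0.0152). It had 238, 279, 284 and 195 in the Khk KO libraries and 79.3, 135, 153 and 97.8 in the WT libraries, with no overlap, and the edgeR test gave 1.10 ± 0.24 with an adjusted p of 0.252. Abhd11os, which lies antisense to Abhd11 and may therefore hold reads of that gene if the libraries did not keep the strand, had 1698, 3041, 2300.3 and 2125 in the Khk KO libraries and 7671, 2665, 2964 and 2271 in the WT libraries in duodenum. WT replicate 1 was far above the other 7 there, and the groups overlapped. In jejunum Abhd11os had 1470.0, 1404, 1259.6 and 1247 in the Khk KO libraries and 3230.0, 1507, 1890.5 and 1501 in the WT libraries, and it passed in neither segment (edgeR adjusted p 0.974 and 0.26). Its fold changes were -0.76 and -0.60, and -0.20 and -0.28 without WT replicate 1.

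Nuclear copies of mitochondrial genes form a cluster on chromosome 1, on the minus strand, in which 7 of the pseudogenes lie: Gm28439 (chr1:24611535-24612410, copy of mt-Nd4), Gm10222 (mt-Nd4l), Gm28438 (mt-Nd3), Gm28437 (mt-Co3), Gm10925 (mt-Atp6), Gm28661 (mt-Co2) and Gm29216 (chr1:24615706-24616197, mt-Co1). Their parents encode subunits of the respiratory chain and ATP synthase. Between 96.7% and 100% of their windows occur in another transcript. In liver Gm28439 had 446, 486, 458 and 372 in the Khk KO libraries and 326, 357, 195 and 260.0 in the WT libraries and Gm10222 169, 157, 156 and 138 in the Khk KO libraries and 117, 80.1, 52.2 and 65.5 in the WT libraries, with no overlap in either. The edgeR fold changes were 0.63 ± 0.20 (adjusted p 0.0517) and 0.98 ± 0.25 (0.0285), and mt-Nd4 itself was at 0.43 ± 0.18 (0.142).

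The mitochondrial protein-coding genes with a row in the liver table were higher in 4 of 5 cases. In duodenum the same copies were at 1.04 ± 0.34 and 0.81 ± 0.41, with edgeR adjusted p of 0.838 and 0.949. In jejunum Gm29216 alone had a row, at -0.97 ± 0.29 (edgeR adjusted p 0.252). In ileum all 5 copies with a row were lower. Gm29216 had 357, 337, 368 and 361 in the Khk KO libraries and 1269, 1191, 527 and 509 in the WT libraries there, with no overlap, at -1.30 ± 0.29 (SE) on the log2 scale with an adjusted p of 0.0235 in the edgeR quasi-likelihood test, although WT replicates 1 and 2 stood far above WT replicates 3 and 4. Gm28661 had 706, 599, 760.3 and 658 in the Khk KO libraries and 2314, 937, 934 and 912 in the WT libraries, with no overlap, and did not pass (edgeR adjusted p 0.0679). The mitochondrial protein-coding genes with a row in the ileum table were lower too, 7 of 7. Gm10925 in ileum turned without the length trend to 0.09 and the other copies kept their sign.

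Each pseudogene was next compared with the parent of the same name stem, to see whether the 2 differed between genotypes by the same amount. For 71 pairs of a pseudogene and its parent, 28 for liver, 12 for duodenum, 7 for jejunum and 24 for ileum, both had a row; they comprise 40 pseudogenes and 33 parents. Parent and copy had fold changes of the same sign in 71 of 71, both lower in 70 and both higher in 1, the interferon-inducible gene Ifi203 and Ifi203-ps in liver. Because both were selected on the same contrast and libraries, this agreement is a description.

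The log2 ratio of pseudogene to parent, which depends on library scaling only through the added 1, differed between genotypes by a median of -0.06, with a range from -0.79 to 0.86, and by less than 0.5 in 67 of 71 pairs. An exact two-sided permutation test over the 8 libraries, with 0.0286 the smallest p it can give, was at that p for 3 pairs. None passed after Benjamini-Hochberg adjustment over the 71 pairs, where the lowest adjusted p was 0.553. With 0.0286 as the smallest p, a pair could pass only if many of the 71 reached it. That none passed therefore does not show that copy and parent changed equally. The 3 pairs at the smallest p were Rps12-ps9 in duodenum and Rpl17-ps10 and Rpl21-ps15 in ileum, each with its parent.

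For Rpl17-ps10 in ileum the log2 ratio to Rpl17 was 1.77, 1.78, 1.77 and 1.73 in the Khk KO libraries and 1.45, 1.32, 1.67 and 1.32 in the WT libraries. Every Khk KO ratio was above every WT ratio, by 0.32 ± 0.08 (SE) on average, and the fold changes of copy and parent were -0.46 and -0.78 in the authors' deposited table. Rpl21-ps15 against Rpl21 in ileum differed in the same direction, by 0.67 ± 0.25. Rps12-ps9 against Rps12 in duodenum differed by -0.56 ± 0.15. For Gpx4-ps2 against Gpx4 in liver the ratio was -2.30, -2.27, -2.26 and -2.28 in the Khk KO libraries and -2.30, -2.17, -2.24 and -2.14 in the WT libraries, a difference of -0.07 ± 0.04 that overlapped between genotypes (exact permutation p 0.143, adjusted 0.634). For Rpl38-ps2 against the identical Rpl38, the differences were -0.14 ± 0.26, 0.05 ± 0.24, -0.15 ± 0.09 and -0.34 ± 0.31.

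Per length, the FPKM of a pseudogene was a median of 27.8% of that of its parent, with a range from 0.477% to 1578%. Mpc1-ps, a retrocopy of a subunit gene of the mitochondrial pyruvate carrier in an intron of Zfp839, was the highest, with a mean FPKM of 362 in liver where Mpc1 had 22.6. Rpl17-ps10 and Rpl17-ps3 were also above Rpl17 in liver, with FPKM of 249 and 209 against 54.3. Tpt1-ps3, identical to the coding sequence of Tpt1, a protein of growth and calcium binding, was at 96.7 against 475 in liver. How reads that match copy and parent alike were counted is not given in the sources used here. These ratios therefore do not show which of the genes the reads came from.

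When the parent was instead the closest coding sequence, a choice made after seeing the data, 218 pairs of 145 pseudogenes and 115 parents had rows for both. The signs agreed in 212, with both lower in 194 and both higher in 18, and the median difference of the log2 ratio was -0.07. None passed after adjustment over the 218 pairs (14 were at an exact permutation p of 0.0286, and the lowest adjusted p was 0.445). The same limit of the permutation test applies here. The 6 pairs of opposite sign were Gm7599 with Nsa2, Gm16061 with Rps2 and Gm11955 with Rpl29 in liver, Gm9824 and Gm10819 with Pebp1 in duodenum, and Gm4204 with Nap1l1 in jejunum, and in each the copy was the higher. Their ratio differed by 3.38 ± 0.84, 2.82 ± 0.99, 2.81 ± 1.16, 1.24 ± 0.46, 1.24 ± 0.47 and 1.04 ± 0.35 in that order. The 3 liver copies were 90.7%, 92.0% and 92.3% identical to their parents, and the duodenum and jejunum copies at least 98.9%.

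**Figure D4:**
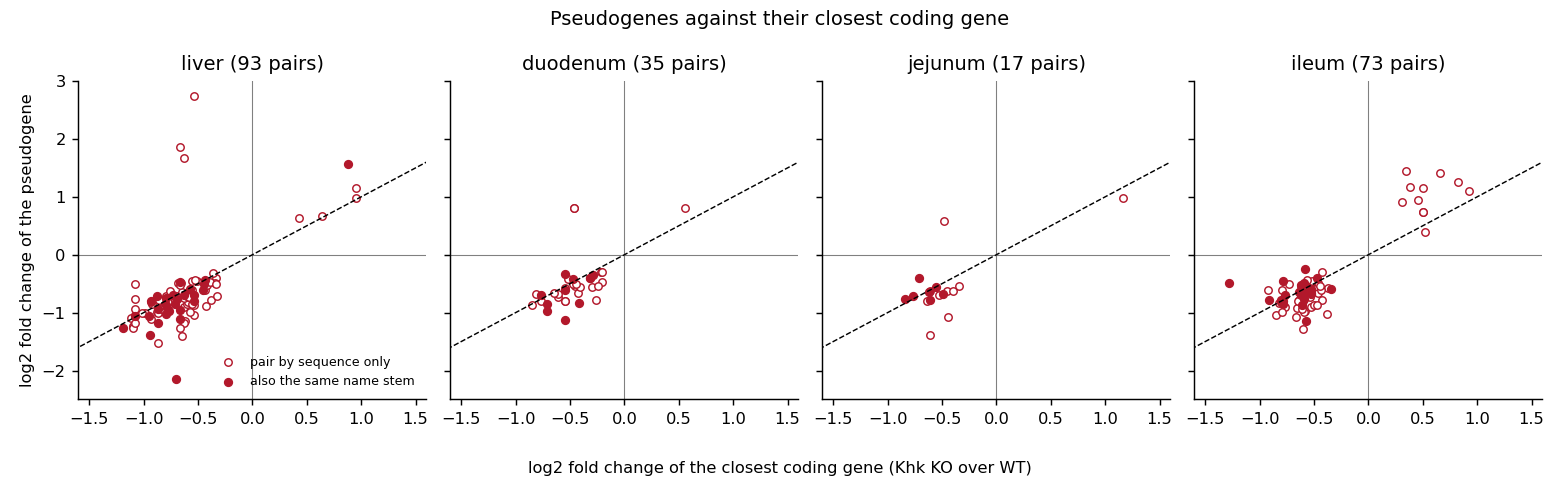
Log2 fold change (Khk KO over WT, authors' deposited table) of each pseudogene on the vertical axis against that of its closest coding gene on the horizontal axis, 1 panel per organ with 93, 35, 17 and 73 pairs. The dashed line marks equal change, and filled points are pairs that also share the name stem. Most pairs lie in the lower left quadrant near the line, 6 of 218 lie in the quadrants of opposite sign, and 18 lie in the upper right; the signs are those without length correction.

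Host genes gave another comparison for copies inside introns. In liver, of 9 copies at least 97% identical to a parent whose host gene also had a row, 7 had the sign opposite to the host and 2 the same sign. Mpc1-ps was at -0.61 where Zfp839 was at 0.78, and Gm15590 at -0.75 where Tulp4 was at 1.11 in the authors' deposited table. Of 7 other intronic pseudogenes, 4 had the sign of the host, among them Gm18760 with Chdh at 0.45 and Gm7599 with Cabyr at 1.56, and 3 the opposite. In ileum the counts were 1 of the same and 3 of opposite sign in each class, and the other segments had at most 2 in a class. Copies at least 97% identical were lower in 92 of 98 cases in liver whether or not they lay in an intron. Copy and host were also selected on the same contrast and libraries, so these signs are a description.

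Across organs, 100 pseudogenes were in 2 or more tables. They were lower in every table in 74 cases, higher in every table in 25 and of mixed sign in 1, while 1853 of 3698 genes of any kind with as many tables were lower in each, 1755 higher in each and 90 mixed. Those in all 4 tables were Gstp-ps, Gpx4-ps2, Gm15427, Rpsa-ps10, Gm15500, Rpl6l, Rpl38-ps2 and Hyi, lower in each, and Gm15502, higher in each. Without the length trend Gm15427, Rpsa-ps10, Gm15500, Rpl6l and Hyi turned sign in at least 1 organ.

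Hyi, the hydroxypyruvate isomerase gene, annotated as a polymorphic pseudogene, had 675, 568, 624 and 572 in the Khk KO libraries and 691, 1006, 892 and 879.7 in the WT libraries in liver, with no overlap and an edgeR adjusted p of 0.0457. Its intestinal fold changes were -0.56, -0.52 and -0.52, with overlap in each and edgeR adjusted p of 0.907, 0.313 and 0.0822. Without WT replicate 1 the duodenum and jejunum values were -0.18 and -0.19. Gm15502 (chr5:137896752-137896959), an 86% identical fragment of Vdac1, a channel of the outer mitochondrial membrane, in an intron of Cyp3a13, had 266, 420.2, 462 and 532 in the Khk KO libraries and 70.3, 254, 279 and 233 in the WT libraries in jejunum and 99.7, 103, 83.8 and 92.5 in the Khk KO libraries and 18.6, 80.8, 61.1 and 33.1 in the WT libraries in ileum. WT replicate 1 was lowest in both, and the groups overlapped in liver, duodenum and jejunum but not in ileum. Its fold changes were 1.37 ± 0.46, 0.85 ± 0.37, 1.01 ± 0.38 and 0.95 ± 0.38, none of which passed the edgeR test (adjusted p 0.0673, 0.838, 0.26 and 0.122).

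Gm9824 (chr10:29030128-29030688), a copy of Pebp1, an inhibitor of Raf kinase, was the pseudogene of mixed sign. In liver it had 140.0, 235, 143 and 144 in the Khk KO libraries and 393, 498, 237 and 330.2 in the WT libraries, with the Khk KO libraries below all WT libraries. In duodenum it had 475, 252, 217 and 316 in the Khk KO libraries and 217, 153, 143 and 203 in the WT libraries, with the Khk KO libraries above all WT libraries. The edgeR fold changes were -1.14 ± 0.25 (adjusted p 0.0204) and 0.81 ± 0.26 (0.838). In each organ the nearest libraries of the genotypes almost touched, at 235 and 237 in liver and, as rounded, 217 and 217 in duodenum.

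The summed level of the pseudogenes at least 97% identical to a coding gene differed between the libraries of a group. The 98 of liver summed to 27935 to 31825 normalised counts in Khk KO and 37300.3 to 63115 in WT, with WT replicate 3 at 1.397 times their mean without it. The coding ribosomal protein genes were at 1.47 times in that library. In the intestine WT replicate 1 was the highest of 8 libraries in each segment, at 1.88 times the other WT libraries in duodenum, 1.58 in jejunum and 1.53 in ileum, where the coding ribosomal protein genes were at 1.62, 1.31 and 1.58 times.

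The Khk KO to WT ratio of these sums was 0.603, 0.704, 0.677 and 0.685. Without WT replicate 3 the liver ratio was 0.662, and without WT replicate 1 it was 0.556. In duodenum, jejunum and ileum the ratios without WT replicate 1 were 0.860, 0.775 and 0.775. The remaining pseudogenes had ratios of 1.07, 1.00, 1.10 and 1.26. Without WT replicate 1 the median log2 fold change of all pseudogenes went from -0.56 to -0.29 in duodenum, from -0.63 to -0.37 in jejunum and from -0.57 to -0.37 in ileum. Without WT replicate 3 it went from -0.72 to -0.56 in liver, where Rpl17-ps3 went from -0.86 to -0.50. Without WT replicate 1 the liver median went to -0.79.

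**Figure D5:**
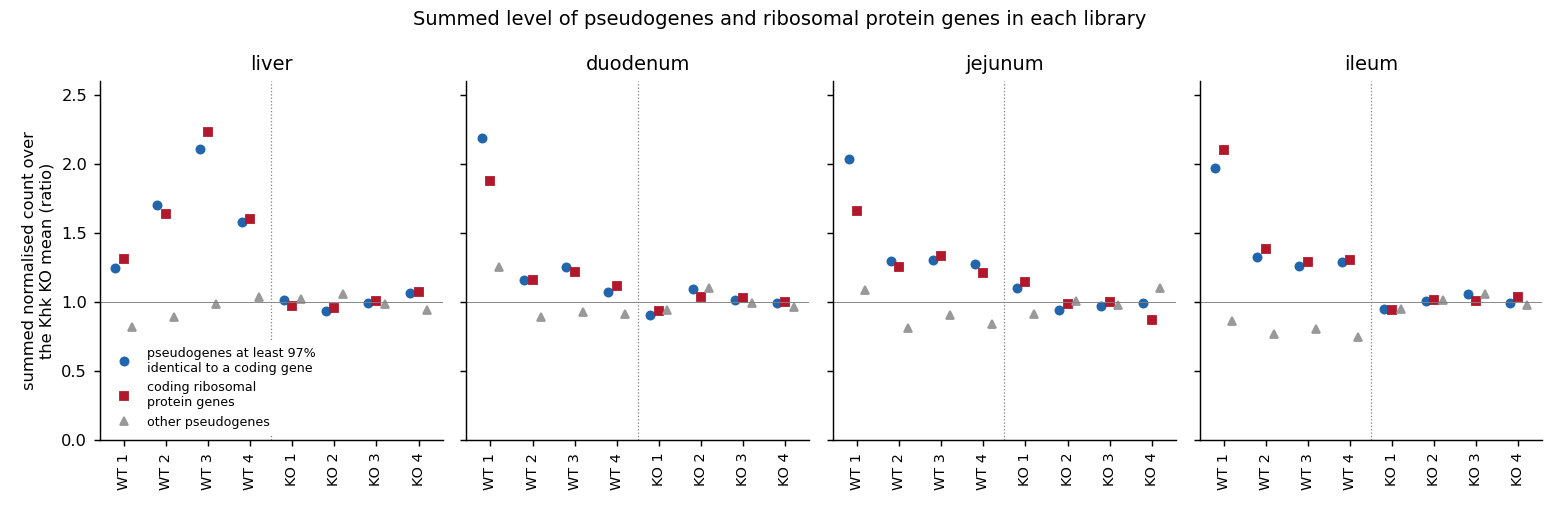
Summed normalised counts in each library, divided by the mean of the 4 Khk KO libraries of the organ, for pseudogenes at least 97% identical to a coding gene (circles), coding ribosomal protein genes (squares) and other pseudogenes (triangles). Near-identical pseudogenes and ribosomal protein genes are highest in WT 1 of each intestinal segment and WT 3 of liver, and the other pseudogenes are highest in a WT 1 library in duodenum only. Values are scaled by the authors' size factors, without length correction.

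A list of 68 coding genes that are frequent parents of retrocopies (glycolysis, translation, RNA binding, chromatin, cytoskeleton, folding, ferritin, respiratory chain) was mostly lower too. In liver 47 of the 48 with a row were lower, in duodenum 18 of 19, in jejunum 20 of 21 and in ileum 41 of 41. Of these 43 in liver and 22 in ileum were lower at an adjusted p under 0.05 in the authors' deposited table (36.9% and 23.5% of all genes). In duodenum and jejunum 0 were (1.11% and 1.12% of all genes). Without the length trend 26 of the 48 in liver were lower, with a median of -0.03. The edgeR test then called 4 lower and 1 higher (6.99% and 6.09% of all genes). In duodenum 14 of 19 and in jejunum 12 of 21 were lower without the trend.

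Markers of other cell types moved beside these results, and their part in them was not tested; in bulk tissue, fewer cells of a type and less RNA per cell cannot be told apart. Erythroid markers had rows for 5 of 8 genes in liver, all lower, with sums of 2967 to 3515 in Khk KO and 4584 to 10959 in WT. They had rows for 4, 4 and 3 of 8 in duodenum, jejunum and ileum, all lower, with sums of 315 to 985, 389 to 719 and 177 to 363 in Khk KO against 821 to 1779.9, 532 to 1543 and 376 to 737 in WT. Hepatocyte markers had rows for 5 of 8 in liver, with 4 lower and sums of 285911 to 324495 in Khk KO and 319449 to 498629 in WT. Enterocyte markers had rows for 1, 3 and 3 of 8 in the same segments, of which 1, 2 and 0 were higher, with sums of 31472 to 44671 against 28685 to 34698, 170505 to 207149 against 155320.2 to 249884 and 16379 to 24722 against 29505 to 53579. Paneth cell markers in ileum, 3 of 8 and all lower, summed to 122911 to 150584 against 169401 to 216907.

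Smooth muscle markers in jejunum, 5 of 8 and all lower, summed to 9434 to 13961 against 11899 to 27059, and B and plasma cell markers in ileum, 3 of 10 and all lower, to 2912 to 3621 against 3757 to 5617. In liver 4 of the 10 had rows, all lower, at 5836 to 6883 against 7929 to 8805, and in duodenum Mzb1 alone had a row and was higher, at 637 to 820.1 against 309 to 627. Acinar cells of the pancreas were represented by Cela1 alone of 10 markers, at 91.2 to 132 against 118 to 193 in jejunum and 126 to 186 against 178 to 275 in ileum. Markers without a row were not analysed here.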

How the data were processed

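RNA was sequenced from 4 libraries of each genotype in each of 4 organs. Per the submitters' processing notes reads were aligned with HISAT2 2.0.5 to GRCm38 (mm10); the counting tool and strand setting are not given in the sources used here. Per the file headers the authors deposited raw read counts, a normalised signal (count divided by 1 size factor per library), FPKM values, a log2 fold change and a p-value with its adjusted value. The tables hold only rows with an unadjusted p under 0.05, and the adjusted values match an adjustment over 18225, 15615, 9881 and 16034 genes (liver, duodenum, jejunum, ileum). An adjusted p of exactly 1 was read as not adjusted. Depth beyond the genes in the tables is unknown.

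Counts of every row were refitted per organ with edgeR 4.0.16 (R 4.3.3; quasi-likelihood F test, filterByExpr, the authors' size factors as scaling), and adjusted with Benjamini-Hochberg over the authors' number of genes at a threshold of 0.05. The SE is the log2 fold change divided by the square root of F. TMM scaling was tried as an alternative, with DESeq2 1.42.0, no filter, a replicate block, adjustment over the table, other level limits and a lowess trend with gene length (span 0.5). Pseudogene to parent ratios were log2 of normalised counts plus 1, with exact permutation tests. Transcripts of GENCODE M21 were compared with blastn 2.17.0 (e-value limit 1e-10). Other steps used Python 3.11.15 with scipy 1.17.1, pandas 2.3.3, numpy 2.4.6 and, for plots, matplotlib 3.10.9. On simulated data the edgeR fit was adjusted over the table alone instead of over the authors' number of genes. It then recovered 60% of 2-fold changes for liver (6375 genes), 63% for duodenum (1567), 57% for jejunum (2413) and 83% for ileum (5187). Of 1.5-fold changes it recovered 8%, 9%, 16% and 24% in the same order. Recovery under the adjustment used for the results was not simulated.

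The pseudogenes and lists were chosen with earlier results of these data known. Named are, per organ, the 6 largest rises and 6 largest falls among those called in the authors' deposited table, those in several tables, those with a parent of the same name stem and the 5 of highest mean; where more than 10 met a part, examples from the top of the order are given. Gm28439 and the other mitochondrial copies, Gm15590, Naip3, Gm6768, Cyp2d35-ps, Cyp2d38-ps, Cyp2d41-ps, Cyp21a2-ps, Gpr137b-ps, Ifi203-ps, Mup-ps13, Gm8893, Btnl7-ps in ileum and Rps26-ps1 were added after their values were seen. Same-numbered replicates did not pair.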

Additional observations from a re-analysis of the deposited data

Results flagged for a closer look

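In 166 groups of 4 libraries, those of the named pseudogenes, 19 libraries lay far from the other 3 of their group by Dixon's test at the 95% level; chance gives about 1 in 20 groups, and values of 1 library are not independent between genes. Most were WT replicate 1 of the intestine. In duodenum it had 7671 for Abhd11os, 4032 for Gstp-ps, 2663 for Rpsa-ps10, 1782 for Gm15427, 1737 for Hyi, 750.4 for Rpl6l and 686 for Rpl31-ps8, all above the other WT libraries, and 2126 for Btnl5-ps, below them. In jejunum it had 4559.8 for Rpl17-ps3, 3844 for Gpx4-ps2, 2919 for Gstp-ps, 803 for Hyi and 318 for Rpl38-ps2. In ileum it had 4249 for Rpl17-ps10, 1344 for Rpsa-ps10 and 1072 for Rpl6l.

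The others were Khk KO libraries. Replicate 1 of liver had 23.0 for Gm16061, below its group, replicate 1 of ileum had 458 for Rpsa-ps10, below its group, and replicate 3 of ileum had 2909.98 for Gm8979, above its group.

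Gm9824 had fold changes of opposite sign in 2 organs, with a log2 fold change in the authors' deposited table of -1.14 in liver and 0.81 in duodenum. The genotypes were separate in each organ but nearly touched, and the duodenum change did not pass the edgeR test. The difference between organs was not tested.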

How the results depend on the processing

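The count of pseudogenes called by the edgeR quasi-likelihood test was 71 in liver and 41 in ileum, beside 49.5% and 33.6% of all genes. Adjusted over the table alone it was 144 and 142. Rows of the tables were already chosen at an unadjusted p under 0.05, so an adjustment within them is too lenient. By the edgeR test 148 of 151 pseudogenes in liver and 142 of 147 in ileum had an unadjusted p under 0.05. The count was 29 and 19 with the length trend taken out (13.1% and 9.85% of all genes), 102 and 85 with DESeq2, and 65 and 48 with TMM. It was 0 in duodenum under each alternative, and 0 in jejunum under each except DESeq2, which gave 7. Leaving out 1 library gave 2 to 111 in liver (3, 2, 12 and 4 without Khk KO replicates 1 to 4, and 111, 11, 51 and 10 without WT replicates 1 to 4) and 5 to 55 in ileum (5, 5, 12 and 6, and 48, 10, 25 and 55). With the replicate number as a block it was 51 in liver and 8 in ileum. Same-numbered libraries shared only a number, since their deviations correlated from -0.29 to 0.31. Shares of all genes called are not given here for DESeq2, TMM, the refits without 1 library or the replicate block. Pairs whose ratio did not overlap between genotypes went from 3 to between 4 and 8 without 1 library, and 9 had the same sign in all 4 same-numbered differences of the replicate block.

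Without the length trend the sign turned, at log2 fold changes of 0.33 or less, for Rpl14-ps1 (0.33), Rpl17-ps10 (0.19), Rpl21-ps15 (0.14), Gm6472 (0.12) and Gm15500 (0.0803) in ileum, Mpc1-ps (0.23), Rpl6l (0.13), Gm15427 (0.10) and Hyi (0.0512) in liver, Rpl6l (0.14) and Rpsa-ps10 (0.0758) in jejunum, and Rpl21-ps15 (0.0247) and Rpl9-ps4 (0.0018) in duodenum; that correction removes whatever follows length, of either origin. Relative to the authors' scaling the median of all genes moved by 0.15 with TMM, 0.18 with DESeq2 and 0.19 with the length trend in duodenum, and by 0.16 with the length trend in jejunum; other shifts were under 0.1. Of the 83 values of named pseudogenes, leaving out Khk KO replicate 2 ended the call of 35, and leaving out WT replicate 1 ended none. Levels near 20 normalised counts, and the genes missing from the tables, limit what these counts can show.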
